A study of Homo sapiens with 12 samples.

Results

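The 10 genes described here encode G1 and S phase cyclins (CCND1, CCND2, CCND3, CCNE1, CCNE2 and CCNA2), the G1 kinases CDK4 and CDK6, and their targets RB1 and E2F3. They are 10 of 19618 protein-coding genes on chromosomes 1 to 22 and X. The genes were selected by name with earlier results of these data known, and the state of the CCND1 and CCNE1 promoters, which carried H3K4me3 without ARID1A, was part of that choice. The promoter states are therefore given as a description, with no test.

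ARID1A, a subunit of the SWI/SNF chromatin remodeling complex, was mapped by CUT&RUN in RT112, a human bladder transitional cell carcinoma line with no ARID1A mutation per the study, and no further treatment was given in the labels. CUT&RUN uses an antibody to tether a nuclease to its target and sequences the DNA fragments that the nuclease frees. The 12 samples formed 4 groups of 3 replicates each, namely ARID1A with an Abcam antibody, ARID1A with a CST antibody, H3K4me3 (a histone mark of active promoters) and the control antibody IgG. The authors merged the called regions of the replicates into 1 list per antibody (37501 Abcam, 32932 CST and 9765 H3K4me3 regions were used), with positions only, so that the depth is unknown and neither signal nor replicate error can be given. The IgG libraries were not analysed here, and all values come from 1 cell line.

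D-type cyclins bind CDK4 or CDK6 when growth signals reach a cell in G1, and the resulting kinases phosphorylate the retinoblastoma protein RB. Phosphorylated RB lets go of E2F transcription factors, which then switch on genes of S phase entry, among them those of cyclin E and cyclin A. Cyclin E and cyclin A in turn activate CDK2, and this circuit is often altered in bladder cancer through RB1, E2F3 and CCND1.

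The labelled cell type was checked by its markers. Of 12 markers of urothelial and epithelial cells, 11 had H3K4me3 at the promoter and the same number had regions of both ARID1A antibodies, and KRT5 was the marker without H3K4me3. Of 10 markers of other cell types, 1 (ACTA2) had H3K4me3 and 2 had both ARID1A antibodies.

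A promoter was the 1 kb on either side of any transcription start site (TSS) of a protein-coding transcript in GENCODE 44, and a region counted when it overlapped that window by at least 1 bp. Both ARID1A antibodies had a region at the promoters of CCND3, CCNE2, CDK4 and E2F3, which is 4 of the 10 genes, against a background of 38.2% of all protein-coding genes. CDK6 had a CST region without an Abcam region, so any ARID1A region was found at 5 of the 10 genes, against 50.3% of all genes. These 2 counts lie near the background. The 10 genes include CCND1 and CCNE1, chosen with no ARID1A there, so nothing is read from this nearness. H3K4me3 was present at 9 of the 10 promoters, against 53.1% of all genes, and CCND2 was the gene without it. H3K4me3 without ARID1A was found at CCND1, CCNE1, CCNA2 and RB1, 4 of the 10 genes, against 9.96% of all genes. Since 2 of these 4 genes defined the choice, nothing is read from this count. Within genes with H3K4me3, both antibodies were at 4 of 9 of the genes described here, against 63.8% of all genes with the mark, and no ARID1A region was at 4 of 9, against 18.8%. The same 2 genes are among these 9, so nothing is read from these shares either.

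**Figure D1:**
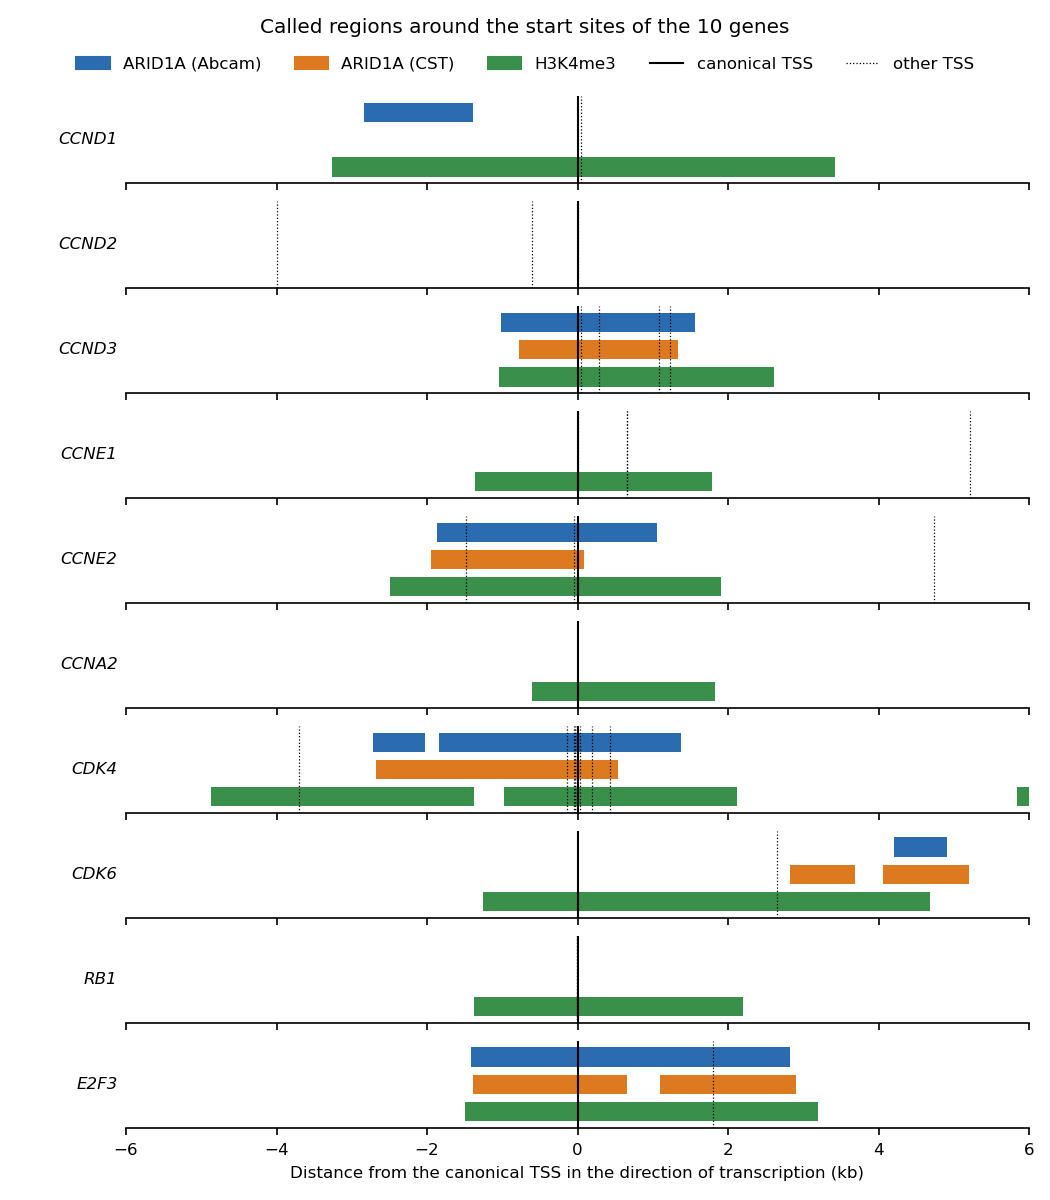
Regions of ARID1A with the Abcam antibody (blue), ARID1A with the CST antibody (orange) and H3K4me3 (green) within 6 kb of the canonical TSS (solid line) of each of the 10 genes, with other TSSs as dotted lines and the distance in kb, positive in the direction of transcription. CCND3, CCNE2, CDK4 and E2F3 carry all 3 colors over the canonical TSS, CCND1, CCNE1, CCNA2 and RB1 carry H3K4me3 alone there, and CCND2 carries no region.

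The promoter sequences of 5 genes are shown because their states differ: CCND1, CCNE1 and CCNA2 had H3K4me3 without ARID1A, and CCND3 and E2F3 had both antibodies and the mark. Each is the 250 bases before the canonical TSS in hg38, 5′ to 3′ on the strand of the gene. Capitals mark words searched on both strands, TTCGCGC or TTGGCGC or TTCCCGC for E2F, TGACGTC for a CRE, GGAATG for TEAD, GGGCGG for the GC box, CCAAT for the CCAAT box and TTTGAA for the CHR element. Adjacent or overlapping words run together, as in the GC boxes of CCND1 and in CCNA2, where the palindromic CRE word was read on either strand.
CCND1 (chr11:69640906-69641155, plus strand): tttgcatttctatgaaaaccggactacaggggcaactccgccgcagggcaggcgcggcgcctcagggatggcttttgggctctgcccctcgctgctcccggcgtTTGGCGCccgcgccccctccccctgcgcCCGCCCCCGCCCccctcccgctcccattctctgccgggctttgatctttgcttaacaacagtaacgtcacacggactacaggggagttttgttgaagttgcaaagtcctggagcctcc
CCNE1 (chr19:29811741-29811990, plus strand): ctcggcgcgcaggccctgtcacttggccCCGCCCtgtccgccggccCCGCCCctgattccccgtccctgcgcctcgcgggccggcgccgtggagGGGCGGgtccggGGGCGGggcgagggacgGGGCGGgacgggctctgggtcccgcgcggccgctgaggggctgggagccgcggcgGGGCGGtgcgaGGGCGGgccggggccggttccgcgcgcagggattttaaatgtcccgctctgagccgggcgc
CCNA2 (chr4:121823884-121824133, minus strand): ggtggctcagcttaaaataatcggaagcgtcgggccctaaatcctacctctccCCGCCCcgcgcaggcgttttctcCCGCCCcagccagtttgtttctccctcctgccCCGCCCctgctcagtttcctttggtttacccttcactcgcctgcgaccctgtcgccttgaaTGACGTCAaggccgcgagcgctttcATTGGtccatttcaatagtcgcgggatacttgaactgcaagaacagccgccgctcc
CCND3 (chr6:41941809-41942058, minus strand): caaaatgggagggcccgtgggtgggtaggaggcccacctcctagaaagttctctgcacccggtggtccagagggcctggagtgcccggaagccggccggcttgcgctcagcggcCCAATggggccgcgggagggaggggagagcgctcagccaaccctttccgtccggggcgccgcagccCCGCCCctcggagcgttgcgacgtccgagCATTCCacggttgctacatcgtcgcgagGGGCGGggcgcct
E2F3 (chr6:20401629-20401878, plus strand): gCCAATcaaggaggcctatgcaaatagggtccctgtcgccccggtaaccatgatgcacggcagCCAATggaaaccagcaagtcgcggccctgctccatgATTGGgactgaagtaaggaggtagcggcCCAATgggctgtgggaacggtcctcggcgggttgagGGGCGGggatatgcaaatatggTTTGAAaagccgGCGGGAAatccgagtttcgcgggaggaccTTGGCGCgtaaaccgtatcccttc

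The sequences differ in what they hold. Over the 300 bases from 250 before to 50 after the TSS, CCNE1 had 7 GC boxes and a GC content of 81%, higher than 97% of all promoters. CCNA2 had the CRE word, 1 CCAAT box and 3 GC boxes at a GC content of 61%. E2F3 had 2 E2F words, 4 CCAAT boxes and 1 CHR element at a GC content of 58.3%, the lowest of the 10 genes. The GC content of the others ranged from 64.7% in CCND1 to 78% in CDK6, and the median of the 10 genes was 67.8%, against 63.7% over 19617 promoters.

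An E2F word was present in 4 of the 10 promoters (CCND1, CCNE2, RB1 and E2F3), against 14.7% of all promoters, so it stood in promoters with ARID1A as well as in promoters without it. A GC box was present in 9 of the 10, with CCND2 as the exception, against 61.6%. The CCAAT box was present in CCND3, CCNE2, CCNA2 and E2F3 (36.1% of all promoters), the CRE word in CCNA2 (4.64%), the TEAD word in CCND3 (11.3%) and the CHR element in CCND2 and E2F3 (11.5%). The AP-1 word TGACTCA and the TATA word TATAAA were present in 0 of the 10, against 3.56% and 9.67% of all promoters. A word in a sequence is a match of letters and not a measured binding site, and a word that is missing from the window says nothing of the factor.

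Among the D-type cyclins, which carry growth signals to CDK4 and CDK6, the 3 genes were in 3 different states. CCND1, which encodes cyclin D1, lies on chromosome 11 (hg38, 69641156 to 69654474, plus strand). Its H3K4me3 region ran from -3256 to +3421 bp around the canonical TSS and was 6678 bp wide, wider than 98.2% of H3K4me3 regions. No ARID1A region lay within 1 kb of a CCND1 TSS. An Abcam region of 1439 bp, wider than 47% of its list, lay from -2834 to -1396 bp, wholly inside the H3K4me3 region, and no CST region overlapped it. CCND1 is thus without ARID1A at its promoter window but not over the whole of its H3K4me3 region. Of 1954 genes with H3K4me3 and no ARID1A region within 1 kb of a TSS, 84 (4.3%) had an ARID1A region of any antibody elsewhere in that H3K4me3 region, and 21 (1.07%), with CCND1 among them, had Abcam alone.

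The nearest region of both antibodies to CCND1 was 33141 bp downstream of its TSS at the promoter of LTO1, where Abcam (1383 bp) and CST (1468 bp) both lay inside an H3K4me3 region of 2571 bp. A further pair of regions, Abcam of 1109 bp and CST of 1211 bp, lay in intergenic DNA from +46938 and +46969 bp, without H3K4me3. Its central sequence is given below with the other distal regions.

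CCND2, which encodes cyclin D2, lies on chromosome 12 (4269771 to 4305353, plus strand) and was without regions at its 3 TSSs and within its body. A total of 7790 protein-coding genes (39.7%) had no region at the promoter. The gene and the 50 kb on either side held 1 region per list, all at the promoter of TIGAR, a regulator of glycolysis. There the Abcam region was 1828 bp wide, the CST region 708 bp and the H3K4me3 region 3134 bp. They began 46822, 46654 and 46455 bp downstream of the canonical CCND2 TSS.

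CCND3, which encodes cyclin D3, lies on chromosome 6 (41934934 to 42050357, minus strand) and has 2 clusters of TSSs. Over the cluster of 5 TSSs with the canonical one, an Abcam region of 2585 bp (wider than 88.2% of its list) and a CST region of 2113 bp (80.9%) shared 2113 bp, and both lay inside an H3K4me3 region of 3653 bp. The other cluster, of 6 TSSs, lies between -106878 and -108549 bp and reaches the promoter of TAF8. It had an H3K4me3 region of 3719 bp and an Abcam region of 1156 bp, wider than 26.9% of its list, without a CST region. The 2 promoters of CCND3 thus had H3K4me3 of like width, and only the canonical one had regions of both antibodies.

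Between the 2 clusters, both antibodies had regions at 2 places in the introns of CCND3 without H3K4me3. At the first, Abcam covered 2109 bp from -26924 to -24816 bp and CST covered 2422 bp. At the second, Abcam covered 717 bp from -35494 to -34778 bp and CST covered 1393 bp. An Abcam region of 1668 bp without CST lay from -102864 to -101197 bp. Beyond the gene, the widest pair lay in the body of C6orf132, where Abcam covered 3201 bp (wider than 94% of its list) and CST 2692 bp (91%), again without H3K4me3.

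The G1 kinases differed in how ARID1A lay on the H3K4me3 of the promoter. CDK4, the kinase partner of all D-type cyclins, lies on chromosome 12 (57747727 to 57756013, minus strand) with 9 TSSs, of which 1 lies at -3703 bp. An Abcam region of 3217 bp, wider than 94.1% of its list, ran from -1839 to +1377 bp, and a CST region of the same width (95.1%) ran from -2678 to +538 bp. A narrow Abcam region of 696 bp lay from -2718 to -2023 bp. H3K4me3 was split there into a region of 3090 bp over the canonical TSS and a region of 3501 bp over the upstream TSS and the promoter of MARCHF9, a ubiquitin ligase. The wide Abcam region had 73.2% of its length in the first H3K4me3 region and 14.5% in the second, and the CST region 47.1% and 40.6%. Regions of both antibodies thus spanned the gap between the 2 H3K4me3 regions.

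CDK6, the other kinase partner of D-type cyclins, lies on chromosome 7 (92604921 to 92836573, minus strand). Its H3K4me3 region was 5938 bp wide, wider than 96.6% of its list, and ran from -1256 to +4681 bp over both TSSs of the gene. A CST region of 866 bp, wider than 11.3% of its list, lay from +2827 to +3692 bp, 171 bp from the internal TSS at +2656 bp, and no Abcam region overlapped it. From +4209 to +4903 bp an Abcam region of 695 bp overlapped a CST region of 1138 bp on the downstream edge of the mark, with 68.1% of Abcam and 54.6% of CST inside it. CDK6 was 1 of 514 genes (2.62%) with CST and H3K4me3 but no Abcam region at the promoter.

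The body of CDK6 held more regions of both antibodies than that of any of the other genes described here. Over the gene and 50 kb on either side (331.653 kb) there were 9 Abcam and 12 CST regions, and 8 of the Abcam regions overlapped CST. Of these 8, 7 lay in introns without H3K4me3. From +68821 to +73610 bp, Abcam regions of 2282 and 2070 bp lay under a CST region of 5230 bp, which was wider than 99.3% of the CST list. From +83492 to +87511 bp, Abcam regions of 1186 and 2668 bp overlapped CST regions of 1445 and 2291 bp. Further pairs began at +95121 bp (Abcam 1189 bp), +200583 bp (1429 bp) and +202514 bp (1193 bp).

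RB1, which encodes the retinoblastoma protein that restrains E2F, lies on chromosome 13 (48303744 to 48599436, plus strand). Its H3K4me3 region of 3580 bp ran from -1379 to +2200 bp and had no ARID1A region in it. In the 395.693 kb of the gene and its flanks, the only ARID1A regions were 1 of Abcam (1288 bp) and 1 of CST (993 bp), which overlapped each other. They lay from +228394 and +228494 bp at the promoter of RCBTB2, which starts inside RB1, without H3K4me3. Upstream, the nearest Abcam region was 69597 bp from the RB1 TSS at the promoter of ITM2B, and the nearest CST region was 92888 bp away. RB1 and CDK6 are both long genes with wide promoter H3K4me3 and were far apart in ARID1A. RB1 had 0.253 Abcam regions overlapping CST per 100 kb and CDK6 had 2.41. Among 734 genes of at least 200 kb with promoter H3K4me3, the median was 1.17 per 100 kb (quartiles 0.561 and 1.96), RB1 was denser than 10.5% of them and CDK6 than 82.3%.

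E2F3, which encodes a transcription factor that RB restrains, lies on chromosome 6 (20401879 to 20493714, plus strand) and has 2 TSSs, the second at +1800 bp. Its Abcam region ran from -1420 to +2827 bp over both TSSs and was 4248 bp wide, wider than 98% of the Abcam list. The CST list had 2 regions there, 2038 bp over the first TSS and 1811 bp over the second. All 3 lay inside an H3K4me3 region of 4687 bp, wider than 90% of its list. The remainder of the gene had no region, and a CST region of 1060 bp lay beyond its end at +113930 bp.

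The E-type cyclins, which activate CDK2 at the entry into S phase, differed in state within 1 kb of a TSS. The state of CCNE1 was part of the choice. CCNE1, which encodes cyclin E1, lies on chromosome 19 (29811991 to 29824312, plus strand). Its H3K4me3 region of 3140 bp, wider than 53.9% of its list, ran from -1357 to +1782 bp without any ARID1A region. The nearest ARID1A region was an Abcam region of 1253 bp without CST in an intron, from +7355 to +8607 bp and 2143 bp from an internal TSS. Downstream of the gene, Abcam (1054 bp) overlapped CST (537 bp) from +28934 bp, within 1 kb of the TSS of a long noncoding RNA. Further on, Abcam (1821 bp, from +32328 bp) overlapped CST (1876 bp) inside an H3K4me3 region of 2481 bp. That was the only intergenic H3K4me3 region among the 23 in the windows of the 10 genes.

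CCNE2, which encodes cyclin E2, lies on chromosome 8 (94879770 to 94896678, minus strand) and shares its promoter with NDUFAF6, an assembly factor of respiratory complex I. An Abcam region of 2921 bp (wider than 91.9% of its list) ran from -1871 to +1049 bp and a CST region of 2035 bp (78.7%) from -1947 to +87 bp. They shared 1959 bp and lay inside an H3K4me3 region of 4398 bp, wider than 86.7% of its list. The regions cannot be assigned to CCNE2 rather than NDUFAF6. Elsewhere in the window there were 2 CST regions without Abcam, of 1037 and 954 bp, from -41867 and -43214 bp.

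CCNA2, which encodes cyclin A2, the partner of CDK2 and CDK1 in S phase and G2, lies on chromosome 4 (121816444 to 121823883, minus strand). Its H3K4me3 region of 2436 bp ran from -605 to +1830 bp and was the narrowest at a promoter of the 10 genes, wider than 23% of its list. No ARID1A region of either antibody lay in the 107.44 kb of the gene and its flanks, although the window held 3 H3K4me3 regions, the others at the promoters of EXOSC9 (1784 bp) and BBS7 (1780 bp). The nearest Abcam region was 111168 bp from the TSS and the nearest CST region 111514 bp, farther than in 87.8% and 85.9% of all genes. A window without any ARID1A region was found for 3011 of 19618 genes (15.3%), and for 321 of the 10409 genes with promoter H3K4me3 (3.08%).

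Just inside the limit of 1 kb was the narrow Abcam region of CDK4, 985 bp from the TSS at 57756013, which was not needed for the state of CDK4. Nearest to the limit on its outer side were the Abcam region of CCND1 (1396 bp from the nearest TSS) and 2 overlapping regions of CDK6. The latter were of CST (1405 bp) and Abcam (1553 bp). The Abcam region of CCNE1 lay farther out (2143 bp). In a window of 3 kb, CCND1 and CCNE1 therefore had Abcam without CST, CDK6 had both antibodies, and RB1 and CCNA2 remained without ARID1A, so that H3K4me3 without ARID1A was found at 2 of the 10 genes. With the canonical TSS alone, CDK6 had no ARID1A region at the promoter. With the most upstream TSS alone, CCND3 and CDK4 had Abcam without CST, and 2 of the 10 genes had both antibodies. These counts are given without the share of all genes under the same setting.

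The width of the promoter H3K4me3 is given here beside the ARID1A state within 1 kb of a TSS. CCND1 and CCNE1 were chosen with that state known, so nothing is read from how width and state go together in the 9 genes. Within 1 kb of a TSS, CCND1 had no ARID1A region and CDK6 had CST alone. Farther out, Abcam regions overlapped the H3K4me3 of both. Taking the widest region of each promoter, CCND1 (6678 bp) and CDK6 (5938 bp) were the widest of the 9. They were wider than 97.9% and 96.1% of the 10409 genes with the mark. E2F3 (4687 bp), CCNE2 (4398 bp), CCND3 (3719 bp) and CDK4 (3501 bp), with both antibodies, followed, with RB1 (3580 bp, no ARID1A) between CCND3 and CDK4. CCNE1 (3140 bp) and CCNA2 (2436 bp), without ARID1A, were the narrowest. Over all genes the median was 3343 bp for the 6637 genes with both antibodies and 2763 bp for the 1954 genes without ARID1A. Of the 222 genes with promoter H3K4me3 at least as wide as that of CCND1, 20 (9.01%) had no ARID1A region at the promoter, and among the 8357 genes with the mark at least as wide as in CCNA2, 1296 (15.5%) had none.

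**Figure D2:**
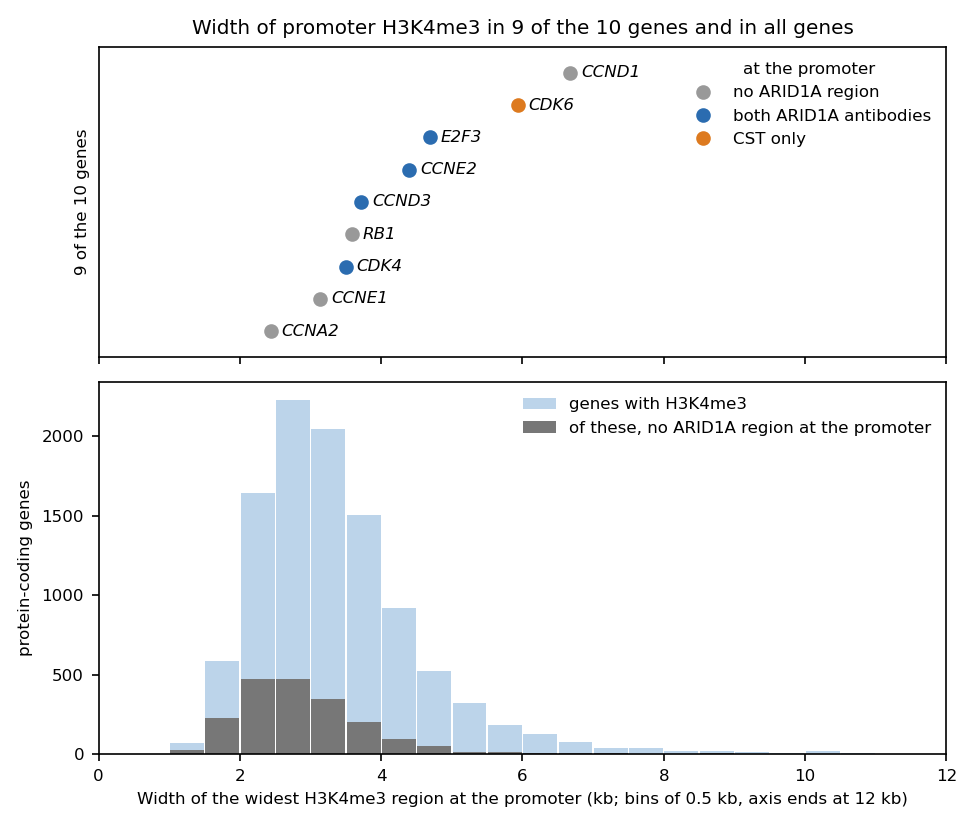
Width in kb of the widest H3K4me3 region at the promoter, above for each of the 9 genes with the mark, colored by the ARID1A regions at the same promoter, and below as numbers of genes in bins of 0.5 kb for all 10409 genes with the mark and for the 1954 of these without ARID1A. CCND1 at 6678 bp and CDK6 at 5938 bp lie in the right tail of all genes. The 4 genes in grey, without ARID1A within 1 kb of a TSS, lie from 2436 to 6678 bp, and CCND1 and CCNE1 among them were chosen with that state known.

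Over the genes and 50 kb on either side, 1828.47 kb in all, there were 33 Abcam regions (0 to 9 per gene), 34 CST regions (0 to 12) and 23 H3K4me3 regions (1 to 5). Of the 33 Abcam regions, 24 overlapped a CST region and are called joint regions here, and 9 Abcam and 11 CST regions had no partner. The median density of joint regions was 1.31 per 100 kb in the 10 genes, against 1.4 over all protein-coding genes and 1.84 over genes with promoter H3K4me3, which 9 of the 10 carried. The median of H3K4me3 regions was 1.4 per 100 kb, against 0.836, which counts the mark at promoters that helped to choose the genes. By joint density, the order was CDK4 (2.77 per 100 kb), CDK6 (2.41), CCND3 (2.32), CCNE1 (1.78), CCND1 (1.76), CCNE2 (0.855), CCND2 (0.738), E2F3 (0.521), RB1 (0.253) and CCNA2 (0). With counts of at most 8 regions per gene and no replicates, neighbors in this order cannot be told apart. Of the genes with both antibodies at the promoter, E2F3, CCNE2, CCND3 and CDK4 were denser in joint regions than 26.5%, 36.8%, 68.4% and 75.4% of all genes. Of those with H3K4me3 and no ARID1A there, CCNA2, RB1, CCND1 and CCNE1 were denser than 0%, 23.4%, 57.8% and 58.3%. CCND1 and CCNE1 were chosen with that state known, and the density counts the joint regions at promoters. Nothing is therefore read from the densities of the 2 states. The canonical TSS lay a median of 16571.5 bp from the nearest joint region, against 13666 bp over all genes and 0 bp over genes with promoter H3K4me3. The choice of CCND1 and CCNE1 as genes without ARID1A at the promoter bears on this median, so nothing is read from it.

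**Figure D3:**
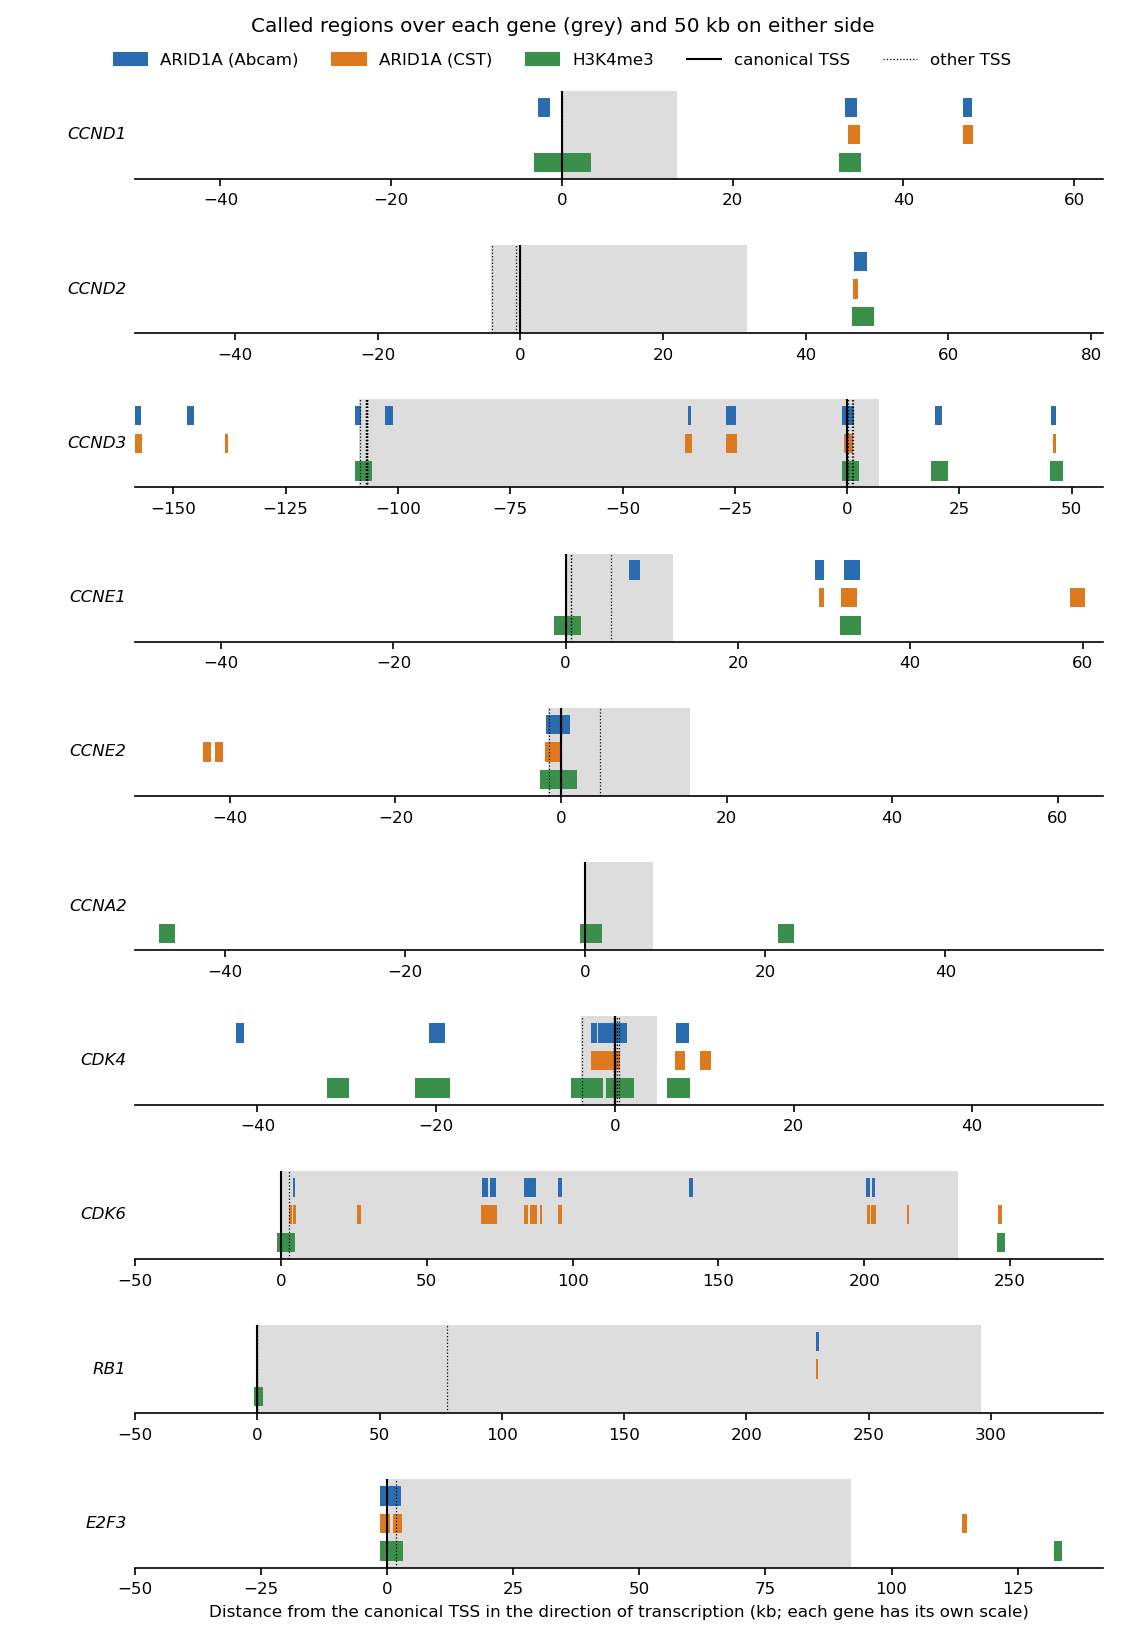
Regions of ARID1A with the Abcam antibody (blue), ARID1A with the CST antibody (orange) and H3K4me3 (green) over each gene (grey) and 50 kb on either side, with the distance from the canonical TSS in kb on a scale of its own for each gene. CDK6 carries 8 joint regions, 7 of them in the gene body without H3K4me3, RB1 carries 1 although its window is longer, and CCNA2 carries none.

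Of the 24 joint regions, 5 lay at promoters of the 10 genes, 10 in their introns, 5 at promoters of other protein-coding genes, 1 in the body of another gene and 3 in intergenic DNA. H3K4me3 overlapped 11 of the 24, against 22.4% of all 28609 joint regions, and 10 of the 24 lay at a protein-coding promoter, against 25.3%. The 2 sets are unlike. The 24 come from windows around protein-coding genes, 9 of the 10 with promoter H3K4me3, and the 28609 from the whole genome. Nothing is therefore read from the higher shares. All 10 intronic regions were in CCND3 and CDK6, 2 and 8 of them, and only that at the edge of the CDK6 promoter mark overlapped H3K4me3. Both genes are long, and a region in an intron need not act on the gene that holds it.

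The central 300 bases of 4 joint regions away from promoters are shown. Apart from the CCNE1 region, they were picked for holding the AP-1 word. That word stood in 5 of the 13 joint regions without H3K4me3 (29.4% of all such regions). It stood in 0 of the 10 promoters (3.56% of all promoters). All 4 sequences are given in hg38 on the strand of the gene named, 5′ to 3′. Capitals mark the words above and the AP-1 word, which reads TGAGTCA on the other strand. In the CCND3 region the CCAAT box and an AP-1 word overlap. The region downstream of CCNE1 is the intergenic one with H3K4me3 and is shown for its GC boxes.
CCND1 +47508 bp (chr11:69688514-69688813, plus strand): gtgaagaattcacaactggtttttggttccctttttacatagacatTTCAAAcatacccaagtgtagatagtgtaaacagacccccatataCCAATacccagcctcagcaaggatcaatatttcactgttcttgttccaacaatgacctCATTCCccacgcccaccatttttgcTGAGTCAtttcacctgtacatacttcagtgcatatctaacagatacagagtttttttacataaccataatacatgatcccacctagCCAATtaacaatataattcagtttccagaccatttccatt
CCND3 -35136 bp (chr6:41976794-41977093, minus strand): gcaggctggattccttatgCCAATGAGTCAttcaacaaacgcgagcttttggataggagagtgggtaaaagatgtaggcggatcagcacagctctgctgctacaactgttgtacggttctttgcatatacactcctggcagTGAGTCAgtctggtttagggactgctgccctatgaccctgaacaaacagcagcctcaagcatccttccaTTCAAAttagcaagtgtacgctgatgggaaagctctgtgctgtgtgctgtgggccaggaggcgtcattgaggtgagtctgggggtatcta
CDK6 +203110 bp (chr7:92633313-92633612, minus strand): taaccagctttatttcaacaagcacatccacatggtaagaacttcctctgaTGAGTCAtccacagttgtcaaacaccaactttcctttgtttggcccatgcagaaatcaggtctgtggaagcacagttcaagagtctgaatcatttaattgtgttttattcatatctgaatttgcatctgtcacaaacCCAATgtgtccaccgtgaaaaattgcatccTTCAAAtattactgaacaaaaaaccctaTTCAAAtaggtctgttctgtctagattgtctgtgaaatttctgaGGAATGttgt
CCNE1 +33062 bp (chr19:29844903-29845202, plus strand): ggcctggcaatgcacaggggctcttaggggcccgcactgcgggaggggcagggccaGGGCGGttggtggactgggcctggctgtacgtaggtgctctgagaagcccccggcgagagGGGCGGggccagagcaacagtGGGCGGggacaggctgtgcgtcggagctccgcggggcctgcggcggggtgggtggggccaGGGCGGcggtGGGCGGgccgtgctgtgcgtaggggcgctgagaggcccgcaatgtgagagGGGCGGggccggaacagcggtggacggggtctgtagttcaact

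AP-1, a dimer of FOS and JUN proteins, is known to bind distal regulatory DNA. Its word stood in the center of 5 of the 24 joint regions, against 23.9% of all joint regions. The 5 were among the 13 joint regions without H3K4me3 (29.4% of all such regions held the word), at CCND1, CCND3 and CDK6, and 0 of the 11 with H3K4me3 held it (4.78% of all such regions). The GC box stood in 6 of the 11 with H3K4me3, against 61.5% of all such regions, and in 0 of the 13 without, against 7.72%. The TEAD word stood in 7 of the 24, against 19.8% of all joint regions. The counts are small and were not tested against these shares.

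Other cyclins, kinases and cell cycle genes gave a setting for the 10 genes, and not all of them act in G1/S. Of 83 genes in 6 lists, 51 (61.4%) had both ARID1A antibodies at the promoter, against 38.2% of all protein-coding genes. Any ARID1A region was at 66 (50.3% of all genes), H3K4me3 at 71 (53.1%) and H3K4me3 without ARID1A at 10 (9.96%). Within the 71 with H3K4me3, 50 had both antibodies, against 63.8% of all genes with the mark. These shares are also the background for each list below. The lists were chosen with earlier results known and carry no test. Within cyclins outside the 10 genes, 8 of 12 had both antibodies, such as CCNG2, CCNF and CCNK. None of the 12 had H3K4me3 without ARID1A (9.96% of all genes), the state of CCND1, CCNE1 and CCNA2. CCND1 and CCNE1 were chosen with that state known, so nothing is read from the contrast. CCNA1, the germline cyclin A, and CCNB3 had neither ARID1A nor H3K4me3.

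Among other cyclin-dependent kinases, 6 of 11 had both antibodies, such as CDK13, CDK9 and CDK5, and CDK14 and MNAT1 (a subunit of the CDK-activating kinase) had H3K4me3 without ARID1A. Among CDK inhibitors, 3 of 7 had both. CDKN1A, which encodes the CDK inhibitor p21, had the widest regions of these, 3843 bp with Abcam and 3879 bp with CST. CDKN2C (2959 and 1479 bp) and CDKN2D (1564 and 1515 bp), which encode inhibitors of CDK4 and CDK6, also had both. CDKN2A, CDKN2B and CDKN1C were without regions of all 3 lists at the promoter. The lists give no copy number, so the missing regions are not read as a chromatin state of these promoters.

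Among RB family, E2F and DP factors, 8 of 15 had both antibodies. RBL2, which encodes the RB relative p130, had an Abcam region of 4282 bp and a CST region of 3079 bp, in contrast to RB1, which had neither. E2F1, the best known activator E2F, had regions of 2792 and 2289 bp, and LIN54, a subunit of the DREAM complex, also had both. E2F4, E2F5 and TFDP1, the first 2 repressor E2Fs and the third a dimer partner of E2Fs, had H3K4me3 without ARID1A, as RB1 did.

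Among regulators of G1 cyclins and CDKs, 14 of 18 had both antibodies. CKS1B, which encodes a cofactor in the degradation of p27, had the widest regions, 5746 bp with Abcam and 5930 bp with CST. By Abcam width it was followed by GSK3B (3100 bp), a kinase that marks cyclin D1 for degradation, and the phosphatase gene CDC25C (2908 bp). AMBRA1, which encodes the substrate receptor for degradation of D-type cyclins, had H3K4me3 without ARID1A. Among E2F targets of S phase entry, 12 of 20 had both antibodies, such as RRM2 (4171 and 4500 bp), PCNA (3185 and 2797 bp) and GMNN. CDT1 and MCM5, which license replication origins, were among the 4 with H3K4me3 without ARID1A, and MCM6 had no region.

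**Figure D4:**
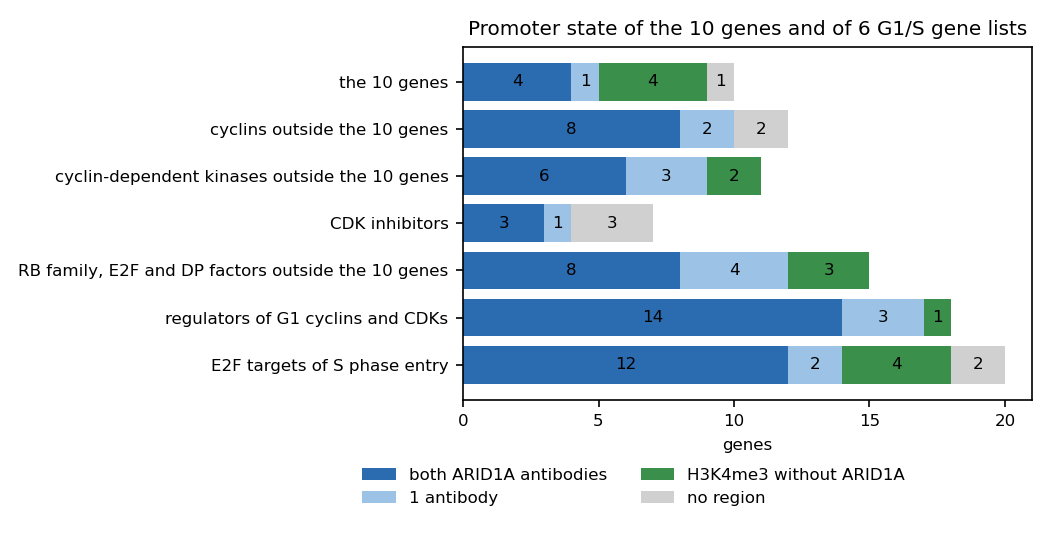
Number of genes by promoter state for the 10 genes (top bar) and for 6 lists of other cyclins, kinases and cell cycle genes. The figure title calls these G1/S lists, though not all of their genes act in G1/S. The states are both ARID1A antibodies (dark blue), 1 antibody (light blue), H3K4me3 without ARID1A (green) and no region (grey). H3K4me3 without ARID1A takes 4 of the 10 genes, with 2 of these part of the choice, and between 0 and 4 genes of each other list.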

How the data were processed

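The labels and the study's methods describe CUT&RUN in RT112 cells with 3 replicates per antibody. The authors trimmed reads with cutadapt, aligned them with bwa-mem2 to the human genome (hg38) and that of E. coli, removed duplicates with Picard and kept unique alignments with samtools. They scaled replicates by spike-in reads, called regions with SEACR, kept only a very small top share of them per the methods and merged replicates with bedtools (versions not given in the sources used here). SEACR was relaxed per the methods and stringent per the names of the lists, so the threshold is uncertain, and a promoter without a region may hold a peak that was not kept. The deposited lists hold region coordinates and no other value (chromosome, start and end), without signal, so regions were compared by width. Merging keeps a region that a single replicate carried.

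The 10 genes, the 6 gene lists and the words were chosen with earlier results of these data known. All 10 genes are named. Of each list, up to 3 genes with both antibodies (widest Abcam region first) and up to 3 lacking ARID1A (alphabetically) are named. Positions count from 1. Regions outside chromosomes 1 to 22 and X were dropped (152 of Abcam, 159 of CST, 14 of H3K4me3). Overlaps were computed in Python 3.11.15 with numpy 2.4.6 by functions tested on simulated data. Sequences came from the hg38 reference with GENCODE 44. Alternatives were windows of 500 bp and 3 kb, other TSSs, wider regions, other overlaps, joining of regions under 500 bp apart, and flanks of 10, 25 and 100 kb.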

Additional observations from a re-analysis of the deposited data

How the results depend on the processing

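Of 52 alternative values of 8 results, 43 lay within 1.5 times the value given in the report and 9 did not. H3K4me3 without ARID1A was found at 2 of the 10 genes in a window of 3 kb, and both antibodies at 2 with the most upstream TSS. Without the regions narrower than their list's median, there remained 29 of the 83 pathway genes with both antibodies, 10 joint regions and 13 H3K4me3 regions over the 10 genes and their flanks, and a median distance of 49802.5 bp to the nearest joint region. This also removed the H3K4me3 of CCNA2 and the CST region of CDK6. Joint regions numbered 41 with flanks of 100 kb, H3K4me3 regions 12 with flanks of 10 kb, and the median distance was 31037.5 bp where Abcam and CST had to share at least 50% of both regions. These changes follow from the construction of each alternative, which keeps fewer regions or takes in more or less DNA. The share of all genes under the same setting is not given, so the counts of genes are not set against a background. No paired analysis was possible because the lists are merged over the replicates, and for the same reason no replicate could be left out. The depth behind a region is unknown, so a promoter without a region was not shown to lack ARID1A.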

Other observations

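The windows of the 10 genes also held 11 H3K4me3 regions at promoters of other protein-coding genes. Both ARID1A antibodies had regions at 4 of these (LTO1, TIGAR, USP49 and TSPAN31). Abcam alone had regions at 2, the shared promoter of BYSL and MED20, which act in ribosome assembly and the Mediator complex, and that of METTL1 and EEF1AKMT3, which encode methyltransferases. CST alone had a region at 1, FAM133B. No ARID1A region lay at the other 4, which were EXOSC9, a subunit of the RNA exosome, and BBS7 beside CCNA2, TSFM, a mitochondrial translation factor, beside CDK4, and CDKAL1 beside E2F3. These neighbors were named because a region lay over their promoter.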
